A study of Mus musculus with 12 samples.

Results

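Expression of 10 genes of the Wnt pathway was followed in mouse breast cancer cells driven to become fat cells. They were 3 ligands (Wnt5a, Wnt10a and Wnt10b), 2 Frizzled receptors (Fzd1 and Fzd2), the coreceptor Lrp5, the scaffold Axin2, and 3 TCF/LEF transcription factors (Lef1, Tcf7l1 and Tcf7l2). They were taken by name from a fixed list, which was chosen with earlier results of these data known. The Entrez gene identifiers of the count table were paired with mouse symbols, and all 10 were among its 17090 genes. RNA was sequenced from MTΔECad cells, which the labels call mesenchymal breast cancer cells, at 0 h, 6 h, day 3, day 5, day 7 and day 10, with 2 libraries at each time that the labels describe as biological replicates. By the protocol, cells were first kept for 3 days with 200 ng/ml BMP2, a growth factor, then with BMP2 and 2 µM rosiglitazone for 4 days, and then for 3 days with rosiglitazone only. This drug activates PPARγ, the main transcription factor of adipocyte formation. No time-matched untreated cells were analysed here, so time in culture and treatment cannot be told apart. Whether the cells are 1 clone is not given in the sources used here.

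Wnt proteins are secreted ligands that bind Frizzled receptors together with the coreceptors Lrp5 or Lrp6. Binding stops a cytoplasmic complex built on the Axin scaffolds from destroying β-catenin, which then enters the nucleus and turns on genes with the TCF/LEF factors, Axin2 among them. In mouse preadipocytes, Wnt10b and Wnt10a are known to hold back fat cell formation through β-catenin, whereas Wnt5a acts mainly through branches that do not use it.

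Library totals ran from 12820802 to 17570366 counts. Levels are given in CPM, counts scaled to library size with TMM factors, with the SD over the 2 libraries of a time, and in CPM per kilobase of deposited gene length where genes are compared with each other. Differences are log2 fold changes from edgeR's quasi-likelihood F test, called at a Benjamini-Hochberg adjusted p below 0.05 over 12740 genes. The mesenchymal gene Vim averaged 7172 ± 179 CPM at 0 h, and the epithelial cadherin Cdh1 0.560 ± 0.169 CPM. The cell name MTΔECad refers to this cadherin, so the Cdh1 level is not an independent check of the cells. The summed level of 8 fat cell markers lay between 34534 and 36007 CPM at day 10, against 31.1 to 36.6 CPM at 0 h, and 1 of the 8, Retn, had no counts at 0 h. That of 6 proliferation markers lay between 40.9 and 48.3 CPM at day 10, against 3202 to 3270 CPM at 0 h, and was already low at day 3, at 48.7 to 71.4 CPM. Of 7 mesenchymal genes, 3 were called higher and 3 lower at day 10 relative to 0 h, with a median log2 fold change of 0.11. Their summed level, most of it Vim at 0 h, was 2961 to 3299 CPM at day 10, against 9197 to 9569 CPM at 0 h, and it was highest at day 3, at 10473 to 15176 CPM. The summed level of 5 epithelial genes was 259 to 284 CPM at day 10, against 719 to 733 CPM at 0 h. Leukocyte and endothelial lists stayed at or under 8.65 and 3.98 CPM in every library. The summed level of osteoblast genes was 10.2 to 13.2 CPM at 0 h, 57.5 to 58.5 CPM at day 3 and 42.1 to 46.7 CPM at day 10. The fat cell, proliferation and osteoblast lists changed over the same days as the genes below, and their part in the results was not tested. In such bulk RNA, fewer cells of a type and less RNA per cell cannot be told apart.

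Of the 10 genes, 9 passed the filter on low counts, and Wnt10b did not. Wnt10a at days 7 and 10 and Axin2 at day 3 were near the lower end of counting and passed through their other times, so that part of their difference was built into the filter. A joint test for any difference between the 6 times called 8 of the 9, when 94.7% of all genes tested were called. Lef1 was the exception (adjusted p = 0.129).

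Start-site windows of 300 bases, 250 before and 50 after the annotated start, were in the RefSeq table of GRCm38.p6 for 6 of the 10 genes, in 10 windows. The windows of 3 genes with called changes are printed as examples: the receptor gene Fzd1, the β-catenin target Axin2 and the factor gene Tcf7l2. All 3 were called higher at day 5 relative to day 3, while at day 3 relative to 0 h Axin2 was called lower and Tcf7l2 higher. They were searched on both strands for CTTTGA, the core that TCF/LEF factors bind, which reads TCAAAG on the other strand, with capitals marking a match and lower case everything else.
Fzd1, chr5:4758167-4758466, minus strand: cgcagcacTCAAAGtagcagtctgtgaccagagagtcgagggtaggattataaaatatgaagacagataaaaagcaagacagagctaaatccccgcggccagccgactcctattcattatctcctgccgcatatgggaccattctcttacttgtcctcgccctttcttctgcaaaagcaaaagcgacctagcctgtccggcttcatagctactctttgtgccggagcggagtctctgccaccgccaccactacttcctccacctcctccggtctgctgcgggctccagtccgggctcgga
Axin2, chr11:108920099-108920398, plus strand: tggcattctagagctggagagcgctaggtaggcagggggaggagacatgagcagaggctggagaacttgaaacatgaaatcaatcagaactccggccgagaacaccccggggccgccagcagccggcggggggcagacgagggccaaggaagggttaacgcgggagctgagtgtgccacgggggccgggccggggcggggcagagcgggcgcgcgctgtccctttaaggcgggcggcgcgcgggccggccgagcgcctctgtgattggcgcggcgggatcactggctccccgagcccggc
Tcf7l2, chr19:55741560-55741859, plus strand: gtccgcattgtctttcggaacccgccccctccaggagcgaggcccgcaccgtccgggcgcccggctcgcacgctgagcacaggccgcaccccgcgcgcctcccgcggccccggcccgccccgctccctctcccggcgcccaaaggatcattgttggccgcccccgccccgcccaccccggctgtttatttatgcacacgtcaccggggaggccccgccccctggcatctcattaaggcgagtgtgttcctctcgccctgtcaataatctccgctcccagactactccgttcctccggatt
The core was found once in the Fzd1 window, at base -242 from the start, and in neither of the others. One of the 4 Lef1 windows held it at -180 and -120. The second Tcf7l2 window and those of Tcf7l1 and Wnt10b held none. Among all 32851 windows of the same length, 16.0% held the core, so 2 of 10 windows is a description only.

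Among the ligands, Wnt10a fell to a few counts and Wnt5a dipped and came back, while Wnt10b was barely detectable at any time. Wnt10a (Entrez 22409, chr1:74792019-74804176, plus strand) encodes a ligand that signals through β-catenin. It stood at 16.7 and 17.4 CPM at 0 h, 11.5 and 11.9 CPM at 6 h, 9.46 and 7.89 CPM at day 3, 0.684 and 1.07 CPM at day 5, 0.554 and 0.0617 CPM at day 7, and 0.0896 and 0.306 CPM at day 10. The mean went down at each time in turn, and only the libraries of days 7 and 10 overlapped. Behind the last values were 8 and 1 counts at day 7 and 1 and 4 counts at day 10, so the late levels rest on few reads. Wnt10a fell by 0.97 on the log2 scale at day 3 relative to 0 h (SE 0.19, adjusted p = 2.87e-04). The steepest step came at day 5 relative to day 3, a log2 fold change of -3.29 (SE 0.30, adjusted p = 4.72e-08), when rosiglitazone had been added to BMP2. A further step at day 7 relative to day 5 was called (log2 fold change -1.56, SE 0.58, adjusted p = 0.0445), but leaving out day 5 replicate 2 gave an adjusted p of 0.258 and leaving out day 7 replicate 2 gave 0.385, with log2 fold changes of -1.19 and -0.66. Without day 7 replicate 1 it was -3.67 (adjusted p = 0.00565). Leaving out either 0 h or either 6 h library also lost that call, at adjusted p of 0.0536 to 0.0551. Over the whole course Wnt10a was at 0.198 ± 0.153 CPM at day 10, against 17.1 ± 0.541 CPM at 0 h, a log2 fold change of -6.31 (SE 0.39, 95% interval -7.13 to -5.50, adjusted p = 9.90e-11). The 5 counts over the day 10 libraries carried an exact Poisson 95% interval of 1.62 to 11.7 counts. That SE and interval, derived from the F test, are therefore too narrow for counting error alone.

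Wnt5a (Entrez 22418, chr14:28504543-28527448, plus strand) stood at 8.15 and 6.31 CPM at 0 h, 9.31 and 8.36 CPM at 6 h, 2.86 and 5.66 CPM at day 3, 3.85 and 3.82 CPM at day 5, 6.78 and 6.11 CPM at day 7, and 8.60 and 6.05 CPM at day 10. The libraries of days 3 and 5 were the lowest and did not overlap those of any other time, whereas 0 h, day 7 and day 10 overlapped one another. Wnt5a fell at day 3 relative to 0 h, with a log2 fold change of -0.76 (SE 0.26, adjusted p = 0.0167). The call rests on single libraries: without day 3 replicate 1 the log2 fold change was -0.34 (adjusted p = 0.224), without 0 h replicate 1 it was -0.57 (adjusted p = 0.128), and without day 3 replicate 2 it was -1.33 (adjusted p = 4.08e-04). It rose at day 7 relative to day 5 (log2 fold change 0.75, SE 0.26, adjusted p = 0.0361), although leaving out any 1 of the 4 libraries lost the call (adjusted p 0.0757 to 0.160) and kept the direction. Day 10 and 0 h did not differ detectably (0.02, 95% interval -0.51 to 0.55, adjusted p = 0.954). An antisense gene, Gm2670, overlaps its exons, and the strand setting of the counting is not given in the sources used here.

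Wnt10b (Entrez 22410, chr15:98770712-98778206, minus strand), the ligand best known for holding back fat cell formation, had 1 and 1 counts at 0 h, 2 and 0 at 6 h, 2 and 3 at day 3, 0 and 1 at day 5, and none at day 7 or day 10. A total of 0 counts over the 2 libraries allows up to 0.0887 CPM at day 7 and 0.103 CPM at day 10, on counting error alone. These limits are 3 counts over the library totals without TMM factors, so they are not on the scale of the other levels. At 0 h its 2 counts carried an exact Poisson 95% interval of 0.242 to 7.22 counts. Wnt10b was not tested in the main fit, and with no filter, where it was tested, no comparison called it. No change of Wnt10b was detectable at this depth.

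**Figure D1:**
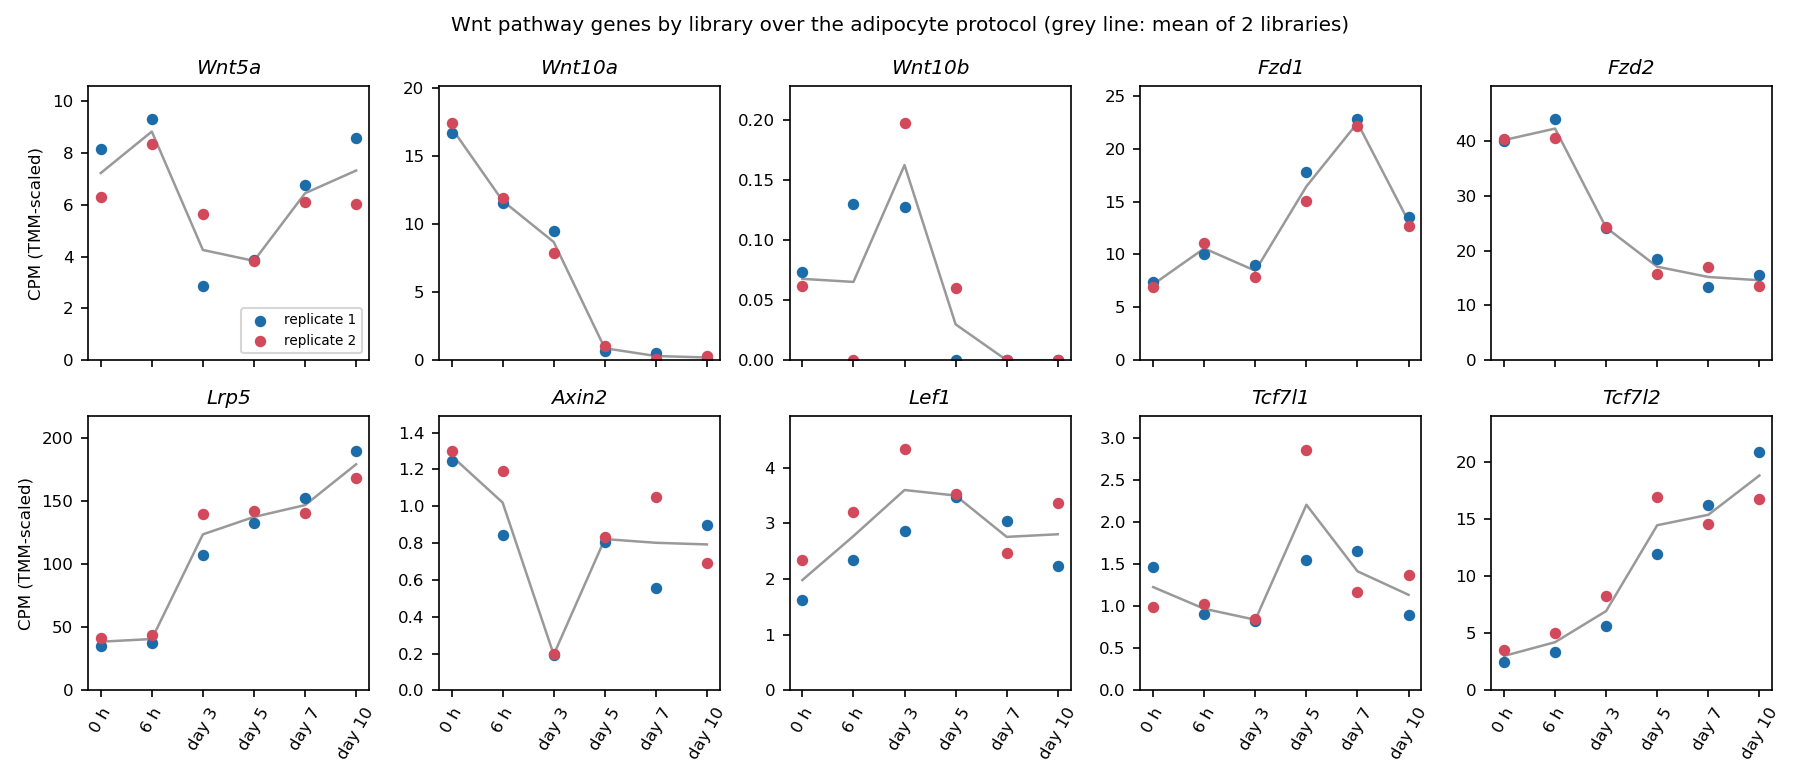
Level of each of the 10 genes in CPM at the 6 times, on an axis of its own for each gene; points are the 2 libraries of a time, lines join their means, and times are evenly spaced rather than to scale. Wnt10a and Fzd2 ended lower at day 10 than at 0 h, Lrp5, Tcf7l2 and Fzd1 ended higher, Fzd1 was highest at day 7, and Axin2 was lowest at day 3.

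The 2 receptors went opposite ways. Fzd1 (Entrez 14362, chr5:4753839-4758216, minus strand), whose start-site window held the core above, stood at 7.42 and 6.92 CPM at 0 h, 10.0 and 11.1 CPM at 6 h, 9.02 and 7.89 CPM at day 3, 17.8 and 15.1 CPM at day 5, 22.8 and 22.1 CPM at day 7, and 13.5 and 12.7 CPM at day 10. No 2 times next to each other in level overlapped. Fzd1 rose at day 5 relative to day 3 (log2 fold change 0.96, SE 0.13, adjusted p = 8.50e-06). It was also higher at day 7 than at day 5 (0.45, SE 0.12, adjusted p = 0.00775), a call lost without day 5 replicate 2 (adjusted p = 0.0963) or day 7 replicate 1 (adjusted p = 0.0541), and with scaling by total counts alone (0.25, adjusted p = 0.0951). It then fell by 0.78 on the log2 scale at day 10 relative to day 7 (SE 0.13, adjusted p = 2.67e-04). At day 10 it was still above 0 h, with 13.1 ± 0.576 CPM at day 10 and 7.17 ± 0.348 CPM at 0 h (log2 fold change 0.87, SE 0.15, adjusted p = 3.14e-05), and with total counts alone the value was 0.52 (adjusted p = 0.00339).

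Fzd2 (Entrez 57265, chr11:102604431-102608058, plus strand) stood at 40.0 and 40.2 CPM at 0 h, 43.9 and 40.5 CPM at 6 h, 24.1 and 24.3 CPM at day 3, 18.4 and 15.7 CPM at day 5, 13.4 and 16.9 CPM at day 7, and 15.6 and 13.6 CPM at day 10. The libraries of 0 h and 6 h were above all others, those of day 3 came next, and those of day 7 overlapped days 5 and 10. Fzd2 fell by 0.73 on the log2 scale at day 3 relative to 0 h (SE 0.11, adjusted p = 2.67e-05), with BMP2 alone. It fell by a further 0.50 at day 5 relative to day 3 (SE 0.12, adjusted p = 0.00158). Over the whole course its log2 fold change was -1.47 (SE 0.12, adjusted p = 7.81e-09). Per kilobase, Fzd1 and Fzd2 were at 3.00 ± 0.132 and 4.02 ± 0.396 CPM per kilobase at day 10, against 1.64 ± 0.0796 and 11.1 ± 0.0439 CPM per kilobase at 0 h.

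The coreceptor Lrp5 (Entrez 16973, chr19:3584825-3686585, minus strand) stood at 35.5 and 41.8 CPM at 0 h, 37.8 and 43.7 CPM at 6 h, 108 and 139.9 CPM at day 3, 133 and 142 CPM at day 5, 153 and 141 CPM at day 7, and 190.0 and 169 CPM at day 10. Every library from day 3 on was above every library of 0 h and 6 h, day 5 overlapped days 3 and 7, and day 10 was above all. Lrp5 rose by 1.68 on the log2 scale at day 3 relative to 0 h (SE 0.13, adjusted p = 7.09e-08), before rosiglitazone was added. No step between days 3, 5, 7 and 10 was called, although without day 3 replicate 2 the rise at day 5 relative to day 3 was (0.36, adjusted p = 0.00992). Day 10 relative to day 7 gave 0.29 (SE 0.12, adjusted p = 0.0882), and that passed without either day 3 library (adjusted p = 0.0192 and 0.0190). At day 10 Lrp5 averaged 179 ± 15.1 CPM, against 38.6 ± 4.47 CPM at 0 h (log2 fold change 2.21, SE 0.13, adjusted p = 1.66e-09).

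Axin2 (Entrez 12006, chr11:108917828-108950783, plus strand), a scaffold of the destruction complex and a widely used readout of β-catenin signalling, was low throughout and lowest at day 3. It stood at 1.25 and 1.30 CPM at 0 h, 0.846 and 1.19 CPM at 6 h, 0.191 and 0.197 CPM at day 3, 0.808 and 0.835 CPM at day 5, 0.554 and 1.05 CPM at day 7, and 0.896 and 0.689 CPM at day 10, with 3 counts in each day 3 library. The 2 libraries of day 3 were below all others, and days 5, 7 and 10 overlapped. Axin2 averaged 0.194 ± 0.00482 CPM at day 3, against 1.27 ± 0.0353 CPM at 0 h (log2 fold change -2.67, SE 0.53, adjusted p = 2.69e-04). It rose at day 5 relative to day 3 by 2.04 (SE 0.57, adjusted p = 0.00476), to 0.822 ± 0.0193 CPM. The 6 counts over the day 3 libraries carried an exact Poisson 95% interval of 2.20 to 13.1 counts, so both SEs are too small for counting error alone. At day 10 relative to 0 h Axin2 was at -0.69 (95% interval -1.57 to 0.19, adjusted p = 0.133), a value that passed (adjusted p = 0.0290, log2 fold change -1.04) when libraries were scaled by total counts alone. Gm11670, an antisense gene, overlaps its exons.

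The TCF/LEF factors also went different ways: Tcf7l2 climbed at days 3 and 5, Lef1 was called at day 3 only, and Tcf7l1 had a single step. Tcf7l2 (Entrez 21416, chr19:55741797-55933659, plus strand) stood at 2.50 and 3.52 CPM at 0 h, 3.38 and 5.05 CPM at 6 h, 5.65 and 8.22 CPM at day 3, 11.9 and 16.9 CPM at day 5, 16.2 and 14.5 CPM at day 7, and 20.9 and 16.7 CPM at day 10. Libraries of 0 h and 6 h overlapped, as did those of day 5 with days 7 and 10, and the order of the means followed time. Tcf7l2 rose at day 3 relative to 0 h (log2 fold change 1.18, SE 0.29, adjusted p = 0.00206) and again at day 5 relative to day 3 (1.06, SE 0.23, adjusted p = 9.16e-04). It averaged 18.8 ± 2.95 CPM at day 10, against 3.01 ± 0.726 CPM at 0 h (log2 fold change 2.62, SE 0.26, adjusted p = 2.67e-07).

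Lef1 (Entrez 16842, chr3:131110297-131224357, plus strand) stood at 1.62 and 2.35 CPM at 0 h, 2.34 and 3.20 CPM at 6 h, 2.86 and 4.34 CPM at day 3, 3.48 and 3.52 CPM at day 5, 3.05 and 2.47 CPM at day 7, and 2.24 and 3.37 CPM at day 10. Its counts per library ran from 22 to 66, and most times overlapped their neighbours in level. Lef1 was called higher at day 3 than at 0 h (0.84, SE 0.30, adjusted p = 0.0199). The call was lost without 0 h replicate 1 (adjusted p = 0.151), without day 3 replicate 2 (0.51, adjusted p = 0.218) and with DESeq2 (adjusted p = 0.0526), and the joint test did not call the gene. At day 10 relative to 0 h the value was 0.50 (95% interval -0.18 to 1.18, adjusted p = 0.161).

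Tcf7l1 (Entrez 21415, chr6:72626371-72789045, minus strand), a factor that mostly represses in the absence of β-catenin, stood at 1.47 and 0.989 CPM at 0 h, 0.911 and 1.03 CPM at 6 h, 0.826 and 0.855 CPM at day 3, 1.55 and 2.86 CPM at day 5, 1.66 and 1.17 CPM at day 7, and 0.896 and 1.38 CPM at day 10, with 10 to 48 counts per library. One library of day 5 was well above the rest, and the other overlapped day 7. Tcf7l1 rose at day 5 relative to day 3 (log2 fold change 1.39, SE 0.39, adjusted p = 0.00462), but without day 5 replicate 2 the value was 0.88 (adjusted p = 0.101). Day 10 and 0 h did not differ detectably (-0.07, 95% interval -0.99 to 0.84, adjusted p = 0.880). Antisense genes overlap the exons of Lef1 (Gm43352) and Tcf7l1 (Gm15401).

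Read by comparison, no listed gene was called at 6 h in the main edgeR fit, as were few of all genes tested. Most listed genes were called at days 3 and 5, as were most of all genes tested. None of the 9 tested was called at 6 h relative to 0 h in the main edgeR fit, when 0.746% of all genes were (0.534% higher and 0.212% lower). Of the 9, Fzd1 (log2 fold change 0.57) and Wnt10a (-0.54) were the 2 with an unadjusted p under 0.05, and DESeq2 called none. With no filter, edgeR called Fzd1 (adjusted p = 0.0297) and Wnt10a (adjusted p = 0.0398). Fitting only the 4 libraries compared, it called Wnt10a (adjusted p = 0.0236). At day 3 relative to 0 h 7 of 9 were called, 3 higher and 4 lower, when 68.1% of all genes were called (33.1% higher and 35% lower). At day 5 relative to day 3 it was 6 of 9, 4 higher and 2 lower, against 65% of all genes (34% higher and 31% lower). At day 7 relative to day 5 it was 3 of 9, 2 higher and 1 lower, against 37.8% (19% higher and 18.8% lower), and at day 10 relative to day 7 it was Fzd1 alone, which fell, against 28.4% (15.1% higher and 13.2% lower). At day 10 relative to 0 h 5 of 9 were called, Fzd1, Lrp5 and Tcf7l2 higher and Wnt10a and Fzd2 lower, when 82.7% of all genes were called (42.8% higher and 39.9% lower). The comparisons with 0 h share the 0 h libraries, and consecutive ones share a time. The median log2 fold change at day 10 relative to 0 h was 0.02 over the 9 and 0.06 over all genes tested.

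**Figure D2:**
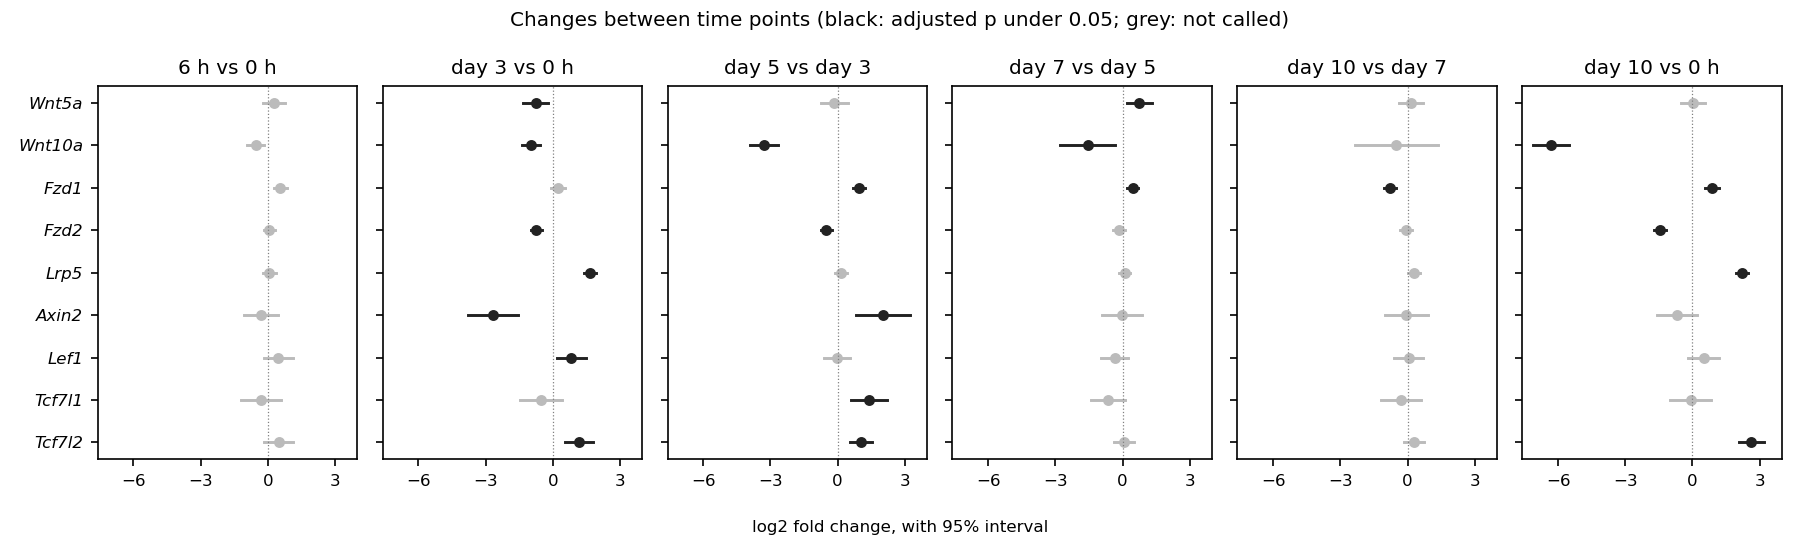
Log2 fold change of the 9 tested genes in each comparison; black points had an adjusted p under 0.05, grey ones did not, and bars are 95% intervals. At day 10 relative to 0 h Wnt10a stood at -6.31, Fzd2 at -1.47, Fzd1 at 0.87, Lrp5 at 2.21 and Tcf7l2 at 2.62.

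Within each family, the make-up of transcripts shifted. Shares of CPM per kilobase within a library do not depend on library scaling, and they are given as descriptions with no test. Among Wnt ligands, Wnt10a made up 2.33 ± 2.00% at day 10, against 17.5 ± 1.58% at 0 h, and Wnt5a 36.4 ± 4.57% at day 10, against 3.36 ± 1.01% at 0 h. The shares of 2 other ligands were also larger, Wnt5b at 24.4 ± 6.60% and Wnt9a at 25.5 ± 3.96% at day 10, against 0.280 ± 0.0321% and 3.64 ± 0.367% at 0 h. In level, Wnt5b was called higher (log2 fold change 2.96) but Wnt9a lower (-0.67, adjusted p = 0.0313) at day 10 relative to 0 h. The larger shares stood on a small total, since the summed ligands were 4.57 ± 0.560 CPM per kilobase at day 10 and 50.1 ± 6.11 at 0 h. Most of that loss was Wnt7b, which was at 0.965 ± 0.282 CPM at day 10 and 166 ± 25.4 CPM at 0 h. Among Frizzled genes, Fzd2 made up 6.77 ± 0.646% at day 10, against 20.7 ± 0.863% at 0 h, and Fzd1 5.05 ± 0.205% at day 10, against 3.07 ± 0.289% at 0 h. Fzd4 was at 28.7 ± 1.62% at day 10 and 3.80 ± 0.305% at 0 h. Fzd6, the largest share at 0 h, was at 21.2 ± 0.284% at day 10 and 54.1 ± 0.772% at 0 h, and Fzd8 at 18.3 ± 0.877% and 6.93 ± 0.281%. Among TCF/LEF genes, Tcf7l2 made up 71.4 ± 7.24% at day 10, against 12.1 ± 3.15% at 0 h, and Tcf7 8.39 ± 0.285% at day 10, against 70.4 ± 3.94% at 0 h. Lef1 (13.3 ± 4.51% at day 10, 9.82 ± 2.76% at 0 h) and Tcf7l1 (6.91 ± 2.44% and 7.74 ± 1.98%) held minor shares at both times. Of the LRP pair, Lrp5 made up 44.2 ± 2.49% at day 10, against 36.8 ± 1.45% at 0 h.

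**Figure D3:**
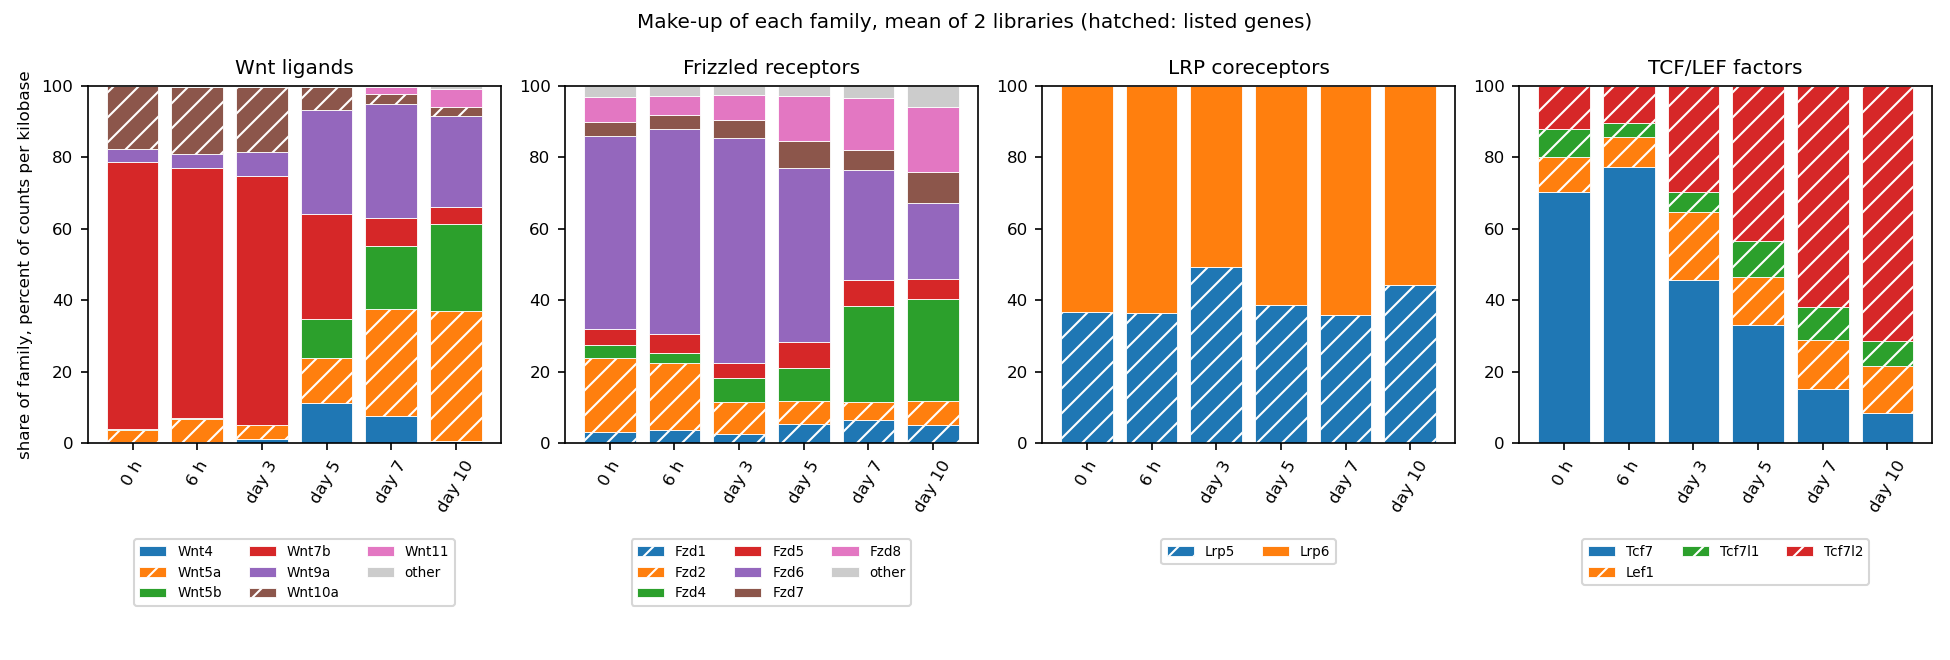
Share of each gene in the summed CPM per kilobase of its family, in percent, at the 6 times (mean of 2 libraries), with the listed genes hatched. In the TCF/LEF panel Tcf7l2 takes the place of Tcf7 as the largest share between 0 h and day 10, and in the ligand panel the shares of Wnt7b and Wnt10a shrink while those of Wnt5a, Wnt5b and Wnt9a grow.

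The wider pathway, grouped by role in lists chosen with earlier results of these data known, was also compared at day 10 relative to 0 h, where 82.7% of all genes tested were called and their median log2 fold change was 0.06. Of 6 ligands tested, 1 rose (Wnt5b, log2 fold change 2.96) and 4 fell (among them Wnt7b, -7.44), with a median of -1.48, or -1.69 when 1 gene with 3 counts or fewer at day 10 took the ratio of its counts. Of 16 receptors and coreceptors, 9 rose and 6 fell, with a median of 0.63, and Fzd4 (3.06, SE 0.11) was the largest riser and Vangl2, a planar polarity gene, the largest faller (-2.23). Lrp6, the other coreceptor, rose by 1.77 (SE 0.08), to 409.8 ± 6.97 CPM at day 10 against 120 ± 6.42 CPM at 0 h. Of 5 secreted inhibitors tested, 2 rose and 3 fell (median -2.16), and Sfrp2, a decoy for Wnt ligands, was at 4.01 ± 0.0347 CPM at day 10 and 139 ± 7.61 CPM at 0 h (log2 fold change -5.11, adjusted p = 1.34e-13). Dkk2, an inhibitor acting on LRP coreceptors, had 1 and 1 counts at day 10 and 292 and 275 at 0 h, a ratio of 230.5 with a 95% counting interval of 63.5 to 1908. In the ligand secretion and R-spondin axis, 2 of 6 rose and 3 fell (median -0.30), and Porcn, which lipid-modifies Wnt ligands, was at 47.6 ± 2.52 CPM at day 10 and 5.83 ± 0.242 CPM at 0 h. Porcn was highest at days 5 and 7, at 98.9 ± 0.487 and 97.6 ± 6.48 CPM, and fell at day 10 relative to day 7 (log2 fold change -1.04, adjusted p = 7.96e-07). Of 20 cytoplasmic genes, 5 rose and 7 fell (median -0.07), and β-catenin (Ctnnb1) was at 797 ± 39.3 CPM at day 10 and 804 ± 21.3 CPM at 0 h (-0.01, adjusted p = 0.908). Of 15 nuclear partners, 5 rose and 7 fell (median -0.07), Tcf7 among the fallers (-2.99). Of 16 target genes, 4 rose and 9 fell (median -0.82), Ccnd1, a cyclin of the cell cycle (-4.77), and Ccn4 (-6.04) among them. At 6 h relative to 0 h, Wnt7b fell by 0.77 (adjusted p = 0.00579) and Tcf7 rose by 0.83 (adjusted p = 0.00894).

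**Figure D4:**
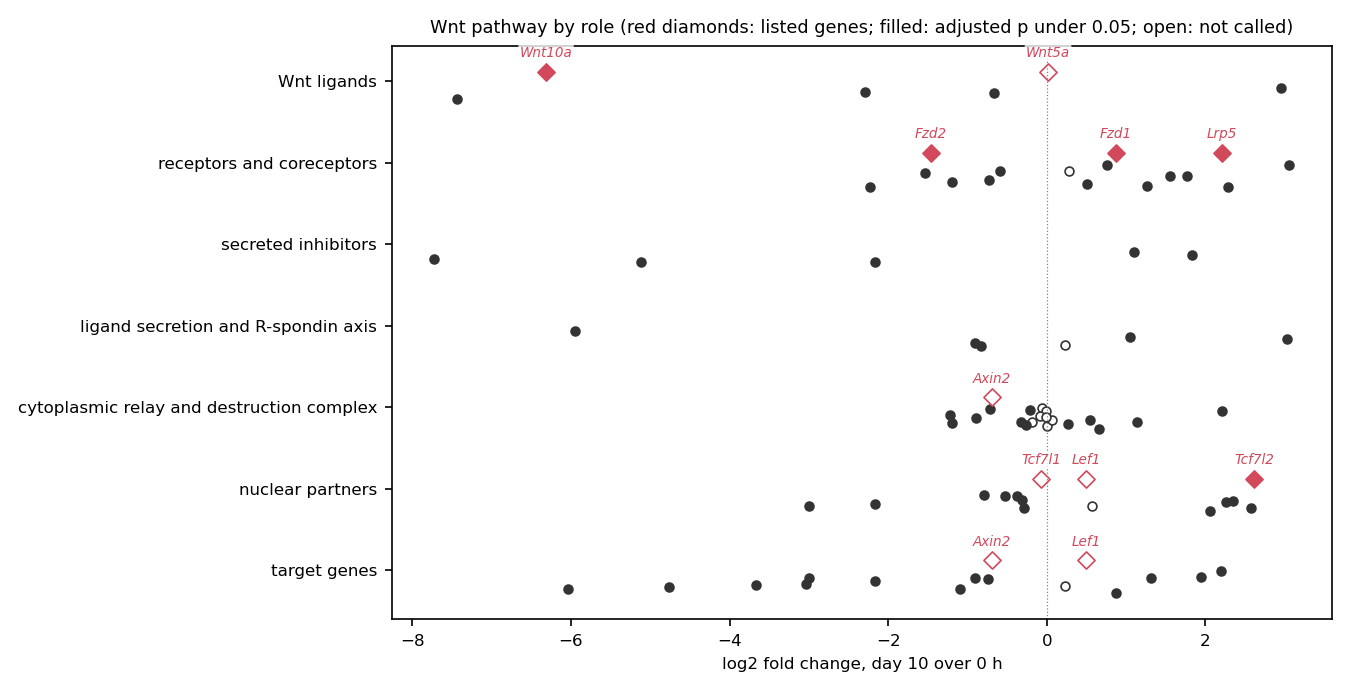
Log2 fold change at day 10 relative to 0 h of the tested pathway genes by role; red diamonds are the 9 listed genes that were tested, other points are the wider lists, and filled points had an adjusted p under 0.05. The points far to the left include Dkk2 and Lgr6, with 2 counts each over the day 10 libraries, whose plotted fitted values depend on the prior count. Among the red diamonds, Wnt10a (-6.31) lies farthest left and Tcf7l2 (2.62) farthest right.

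The genes most like each member in log2 CPM over the 12 libraries, among 11771 genes, were found by Pearson correlation, as a description, since the 12 libraries share 6 times of 1 course and many genes follow it. They were Lzts3 (r = 0.91) and Cdc34 for Wnt5a, Dact2 (0.99) and Nufip1 for Wnt10a, and Pwwp2b (0.96) and Tll2 for Fzd1. For Fzd2 they were Ankrd54 (0.99) and Emd, for Lrp5 R3hdm4 and Usp8 (each above 0.99), and for Axin2 Socs1 (0.96). For Lef1 they were Tmsb15b1 (0.92) and Inpp4a, for Tcf7l1 Hlx (0.88) and Tpcn1, and for Tcf7l2 Zfp395 (0.99) and Dtd2. The joint test did not call Lef1, and Tmsb15b1 averaged only 0.332 CPM at its lowest time, 0 h, and 0.878 CPM at its highest, day 3. Tll2 averaged 0.0271 CPM at 6 h and 2.42 CPM at day 7. Between the listed genes, Lrp5 and Tcf7l2 were most alike (r = 0.94), and both ran opposite to Fzd2 (-0.95 and -0.96).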

How the data were processed

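The authors deposited unnormalized read counts by gene in 1 table for all 12 libraries. Per the submitters' processing notes, reads were aligned with STAR to mm10; which counting tool and strand setting were used is not given in the sources. Per the labels' protocols, RNA came from 2 independent experiments and libraries from 200 ng of RNA with a stranded kit. Symbols were matched through RefSeq for 17045 of 17090 identifiers. Counts were fitted with edgeR 4.0.16 (limma 3.58.1, R 4.3.3): TMM factors, filterByExpr (minimum count 10.0, minimum total 15; 4350 genes removed), a mean per time over all 12 libraries (6 residual degrees of freedom), robust quasi-likelihood F tests and Benjamini-Hochberg adjustment, with a prior count of 0.125. The common biological coefficient of variation was 0.0737. The p-values set differences between times against the spread between libraries of the same time, pooled over all times. Poisson intervals and the limit of 3 counts cover counting error only. The 10 genes and all lists were chosen with earlier results of these data known. Of the wider lists, the 3 called genes with the largest change per list and the most abundant one could be named, and Fzd6 and Fzd8 are named for their family shares. Alternatives were 2 other scalings, DESeq2 1.42.0, 2 filters, the replicate number as a block, fitting only 4 libraries, a prior count of 1, each library left out, and, added after seeing the data, scaling by total counts. The fits were tested on simulated data. Apart from those named, 1 gene nearest to a member in pattern is not reported here.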

Additional observations from a re-analysis of the deposited data

How the results depend on the processing

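The 5 calls at day 10 relative to 0 h (Wnt10a, Fzd1, Fzd2, Lrp5 and Tcf7l2) kept their direction and their call in every alternative run. For the count of listed genes called, no filter gave 2 at 6 h and 2 at day 10 relative to day 7, and fitting only the 4 libraries compared gave 1 and 2. For all genes at 6 h relative to 0 h, no filter gave 275 and 4 libraries gave 223. Leaving out 1 library gave 35 to 141 genes at 6 h, 3128 to 5154 at day 7 relative to day 5 and 2143 to 3998 at day 10 relative to day 7, and 0 to 3 listed genes at day 7 relative to day 5 and 1 to 2 at day 10 relative to day 7. Directions that turned were all of values that were not called. With total counts alone, Lrp5 (-0.10), Tcf7l2 (-0.11) at day 7 relative to day 5, Lef1 at day 10 relative to day 7 (-0.0756) and Wnt5a at day 10 relative to 0 h (-0.34) turned. Wnt5a there was also at -0.0089 with upper-quartile factors and -0.0130 with no filter, and Axin2 at day 7 relative to day 5 was at 0.0069 with median-of-ratios factors. With 1 library left out, log2 values ranged over 0: Lrp5 at 6 h relative to 0 h (-0.0363 to 0.20); at day 5 relative to day 3, Wnt5a (-0.56 to 0.42), Lrp5 (-0.0238 to 0.36) and Lef1 (-0.31 to 0.29); at day 7 relative to day 5, Axin2 (-0.56 to 0.35) and Tcf7l2 (-0.13 to 0.36); at day 10 relative to day 7, Wnt5a (-0.0898 to 0.42), Wnt10a (-1.63 to 1.62), Fzd2 (-0.22 to 0.11), Axin2 (-0.41 to 0.50) and Lef1 (-0.29 to 0.29); at day 10 relative to 0 h, Wnt5a (-0.25 to 0.26) and Tcf7l1 (-0.44 to 0.22). The cause was not tested.

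Whether a replicate number marks the same experiment is not given in the labels. The 15 correlations between the deviations of same-numbered libraries ran from -0.0913 to 0.193, the highest between 0 h and 6 h, so the numbers were not taken to pair the samples. A replicate block called 8 of the listed genes in the joint test and 5 at day 10 relative to 0 h, and changed no call of a listed gene. Total counts alone moved the median of all genes at day 10 relative to 0 h by over 0.1, to -0.29, against 0.05 with TMM. Depth limits Wnt10b, Axin2, Lef1, Tcf7l1 and the late values of Wnt10a.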
